A study of Mus musculus with 9 samples.

Results

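The comparison described here is the effect of a full-length human dystrophin gene in mice that lack mouse dystrophin. Its members are 6 of the 9 arrays of the series, chosen by genotype alone: 3 mice that carried the human gene (carriers) and 3 that did not (non-carriers). Each array held RNA from the gastrocnemius, a calf muscle, of 1 male mouse, on an Affymetrix U74Av2 GeneChip. The carriers were 2 hDMD x mdx mice, aged 24 weeks (hDMD mdx 1) and 10 weeks (hDMD mdx 2), and 1 hDMD x mdx x utrn-/- mouse aged 9 weeks (hDMD mdx utrn-/- 1). The non-carriers were 2 mdx mice, aged 15 weeks (mdx 1) and 13 weeks (mdx 2), and 1 mdx x utrn-/- mouse aged 5 weeks (mdx utrn-/- 1). All 6 therefore carried the mdx mutation of the mouse dystrophin gene Dmd, and 1 mouse on each side also lacked utrophin. The 2 wild-type arrays and the 1 hDMD array took no part in the test. They came from a female (wild-type 1) and a male (wild-type 2), both aged 7 weeks, and a male hDMD mouse (hDMD 1) aged 11 weeks. The labels give a strain mixture for the wild-type mice alone (C57Bl/DBA2/129OLA-Ev), and the strain of the other mice is not given in the sources used here.

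Dystrophin links the actin skeleton of the muscle fibre, through a complex of membrane glycoproteins, to the matrix outside it, and utrophin is a related protein that can stand in for it. Fibres without dystrophin tear during contraction, die and are replaced from satellite cells, so dystrophic muscle holds new fibres that express embryonic contractile genes, macrophages that clear debris, and scar matrix. The comparison asks which of these transcripts stood lower or higher where the human gene was present.

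Levels are given as log2(intensity + 16) after quantile normalisation, so that a level of 4.0 is the floor, where no signal above zero was left. Differences are carrier minus non-carrier with the utrophin genotype held fixed, and equal the mean over 3 pairs of mice. The pairs follow the brightness of the arrays. The bright pair was hDMD mdx 1 and mdx 2, whose spike-in control probe sets had median intensities of 205.9 to 223.1. The dim pair was hDMD mdx 2 and mdx 1, and the utrophin-lacking pair was also dim, with spike-in medians of 28.55 to 39.3 on these 4 arrays. The 3'/5' signal ratio of the actin control, a sign of RNA and target length, was 1.295 to 1.87 on the bright arrays and 0.669 to 0.9077 on the dim ones. Carriers and non-carriers held bright and dim arrays in equal number. Outside the test, wild-type 1 was bright, and wild-type 2 and hDMD 1 were dim. Where levels are set beside those arrays, genotype, age, sex and brightness cannot be told apart. Fibre genes marked the tissue: Acta1 (skeletal actin), Ckm, Mb, Mylpf, Tnnt3 and Myh4 all lay between 9.09 and 11.89 in the 6 arrays. The Dmd probe set lay at 4.0 to 4.55 and the brighter Utrn probe set at 4.15 to 6.16, with carriers, non-carriers and both utrophin genotypes overlapping, so these probe sets do not check the genotype labels.

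Across the whole array, no probe set passed at this sample size. Of 7453 probe sets that cleared the filter on low values, 0 (0%) passed limma's test at a Benjamini-Hochberg adjusted p of 0.05, with a smallest adjusted p of 0.0649. At an unadjusted p of 0.05 limma counted 409 (5.49%), where 373 would be counted by chance; 265 (3.56%) were lower in carriers and 144 (1.93%) higher. Large differences leaned the same way: 259 probe sets differed by more than 1 on the log2 scale, 179 of them lower in carriers and 80 higher. When array brightness was added to the model as a block, 4 of 7453 (0.0537%) passed, all lower in carriers: Myl4, Lgals3, Ctss and the probe set 97519_at, for which no gene name was given, each with a limma adjusted p of 0.0230. At an unadjusted p of 0.05 the fit with the block counted 773 (10.4%). The block left the differences as they were, with 2 residual degrees of freedom beside 3 without the block. The standard errors of those 4 were 0.29 to 0.39 without it and 0.22 to 0.26 with it, but not every gene gained: that of Igf2 was 0.69 without and 0.71 with the block. Without the utrophin term 2 passed (Myl4 and 97519_at), and 1 (Myl4) passed when limma's variance prior followed the signal. An exact permutation test of 1 gene in 3 mice against 3 cannot go below p = 0.1.

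**Figure D1:**
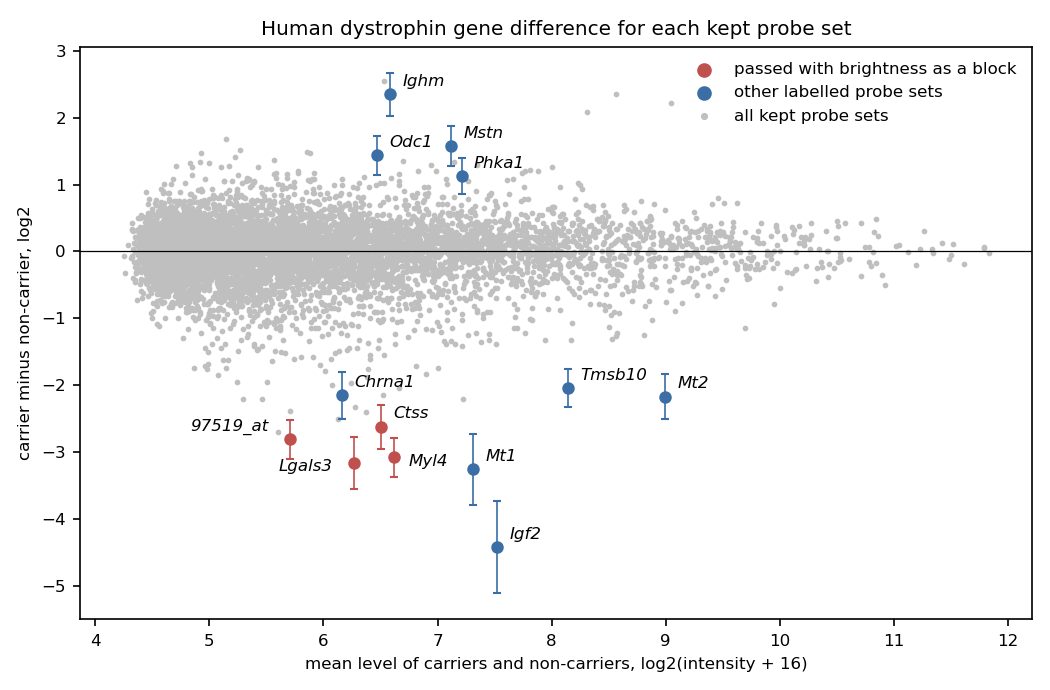
Each grey point is 1 kept probe set; the x axis is the mean of the carrier and non-carrier levels, log2(intensity + 16), and the y axis the carrier minus non-carrier difference (log2). Labelled points carry their standard error from limma, and the 4 that passed with brightness as a block are red: Myl4 at -3.08, Lgals3 at -3.16, Ctss at -2.62 and 97519_at at -2.81.

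Genes of immature and regenerating fibres were mostly lower in value in carriers. A list of regenerating and developing muscle had 24 genes that cleared the filter, called measured here and in the lists below. Of these 24, 22 were lower in carriers in value, beside 2694 of all 5666 genes (47.55%). Carriers and non-carriers did not overlap in 11, with every carrier lower, beside 308 of all genes (5.44%). At an unadjusted limma p of 0.05, 12 of the 24 were lower, beside 213 of all genes (3.76%), and none passed after adjustment. The list's median difference was -0.73, beside 0.02 for all genes, and its median was -0.94 in the bright pair, -0.59 in the dim pair and -1.06 in the utrophin-lacking pair.

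Myl4 encodes the atrial and embryonic myosin light chain, which adult limb muscle normally shuts off. Its probe set 160487_at read 4.96, 5.37 and 4.90 in hDMD mdx 1, hDMD mdx 2 and hDMD mdx utrn-/- 1, and 8.33, 7.88 and 8.26 in mdx 1, mdx 2 and mdx utrn-/- 1. Every carrier lay more than 2 log2 units under every non-carrier, near the 4.70 to 5.04 of the 3 arrays outside the test. The difference was -3.08 ± 0.29 (SE, n = 3 and 3; limma adjusted p = 0.0649, and 0.0230 with the block), an 8.47-fold ratio of intensity + 16. A second probe set, 100828_at, differed by -2.20 ± 0.31 and also separated the mice.

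Myh3, the embryonic myosin heavy chain, read 4.40, 4.27 and 4.40 in carriers, in the same order, and 6.81, 5.72 and 7.16 in non-carriers. The carriers sat just above the floor and the groups did not overlap. The difference was -2.21 ± 0.37 (limma adjusted p = 0.190). The fetal troponin Tnnt2 differed by -1.48 ± 0.28 and the stretch-induced titin-binding gene Ankrd1 by -2.20 ± 0.40, both with no overlap. Myh8, the perinatal myosin heavy chain, differed by -1.01 ± 0.32 with overlapping groups, and on its second probe set, 162374_r_at, by -0.06, also with overlap. The cardiac actin Actc1 read 9.41, 10.26 and 10.19 in carriers against 10.92, 10.35 and 9.55 in non-carriers, so the embryonic genes did not all separate. Its probe set is one that can cross-hybridise with other actins, and without hDMD mdx 1 its difference of -0.32 became 0.06.

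Myog and Csrp3 overlapped between the groups. Myog, the transcription factor of myoblast differentiation, read 5.39, 5.40 and 5.52 in carriers and 5.48, 6.66 and 6.77 in non-carriers. Of the non-carriers only mdx 1 was among the carriers. Its difference was -0.87 ± 0.37. Csrp3, the muscle LIM protein of the Z-disc, read 6.45, 5.05 and 4.0 in carriers and 6.32, 7.48 and 8.91 in non-carriers. Most of that gap came from the utrophin-lacking pair: the difference of -2.40 ± 0.79 ranged from -3.16 to -1.15 as each mouse was left out.

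The acetylcholine receptor is made of subunits that immature and denervated fibres spread over their surface, and of 5 measured, 3 were lower in value in carriers without overlap. Chrna1, the alpha subunit, read 5.69, 4.77 and 4.82 in carriers and 7.13, 7.81 and 6.79 in non-carriers. The groups lay more than 1 log2 unit apart. The difference was -2.15 ± 0.35 (limma adjusted p = 0.174, and 0.0577 with the block). Chrng, the fetal gamma subunit, read 4.48, 4.08 and 4.12 against 5.30, 6.71 and 5.21, a difference of -1.51 ± 0.42, while its other probe set 95639_at differed by -0.83 with overlap. Chrnb1, the beta subunit, differed by -0.71 ± 0.30 with no overlap. Chrnd, the delta subunit, differed by -0.27 and Chrne, the adult epsilon subunit, by 0.29, both with overlap. Of the 12 measured genes in the synapse and denervation list 9 were lower in value and 3 did not overlap, with a median of -0.49. Of these 12, 6 also stand in another list, and Chrna1 and Chrng are counted in the regenerating list too. In that list 11 of the 24 genes stand in another list. Over all genes 47.55% were lower in value and 5.44% did not overlap on that side.

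The promoters of Myl4, Myh3 and Chrna1 are shown because their transcripts stood low together in carriers and because E-boxes are the sites that myogenic factors such as Myog bind. The sequences are the 250 bases before the RefSeq start on GRCm38.p6, 5' to 3' on the gene's strand, with matches to CANNTG, a motif that reads alike on both strands, in capitals. The Myl4 window lies at chr11:104550413-104550662, + strand, that of Myh3 at chr11:67078050-67078299, + strand and that of Chrna1 at chr2:73580339-73580588, - strand.

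Myl4: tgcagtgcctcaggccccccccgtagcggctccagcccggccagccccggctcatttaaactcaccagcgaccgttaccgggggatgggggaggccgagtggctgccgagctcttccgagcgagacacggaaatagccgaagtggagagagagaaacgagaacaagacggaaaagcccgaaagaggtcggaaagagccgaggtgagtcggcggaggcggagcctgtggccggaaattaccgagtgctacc

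Myh3: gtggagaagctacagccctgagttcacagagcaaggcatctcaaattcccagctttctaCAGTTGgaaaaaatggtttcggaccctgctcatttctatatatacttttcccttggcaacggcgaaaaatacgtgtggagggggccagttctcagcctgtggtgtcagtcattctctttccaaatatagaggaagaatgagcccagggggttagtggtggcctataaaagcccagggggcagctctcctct

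Chrna1: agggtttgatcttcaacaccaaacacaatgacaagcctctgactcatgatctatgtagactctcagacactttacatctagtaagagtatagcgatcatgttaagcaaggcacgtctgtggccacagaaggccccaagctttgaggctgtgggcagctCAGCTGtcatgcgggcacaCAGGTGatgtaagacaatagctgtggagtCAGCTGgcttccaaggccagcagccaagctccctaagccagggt

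The Chrna1 window held 3 matches, the nearest beginning 44 bases before the start, a count that 12.2% of 32851 mouse promoter windows of the same length reached. Myh3 held 1, which 66.2% of windows reached, and Myl4 held 0. These are matches of letters only, and bases after the RefSeq start were not searched.

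**Figure D2:**
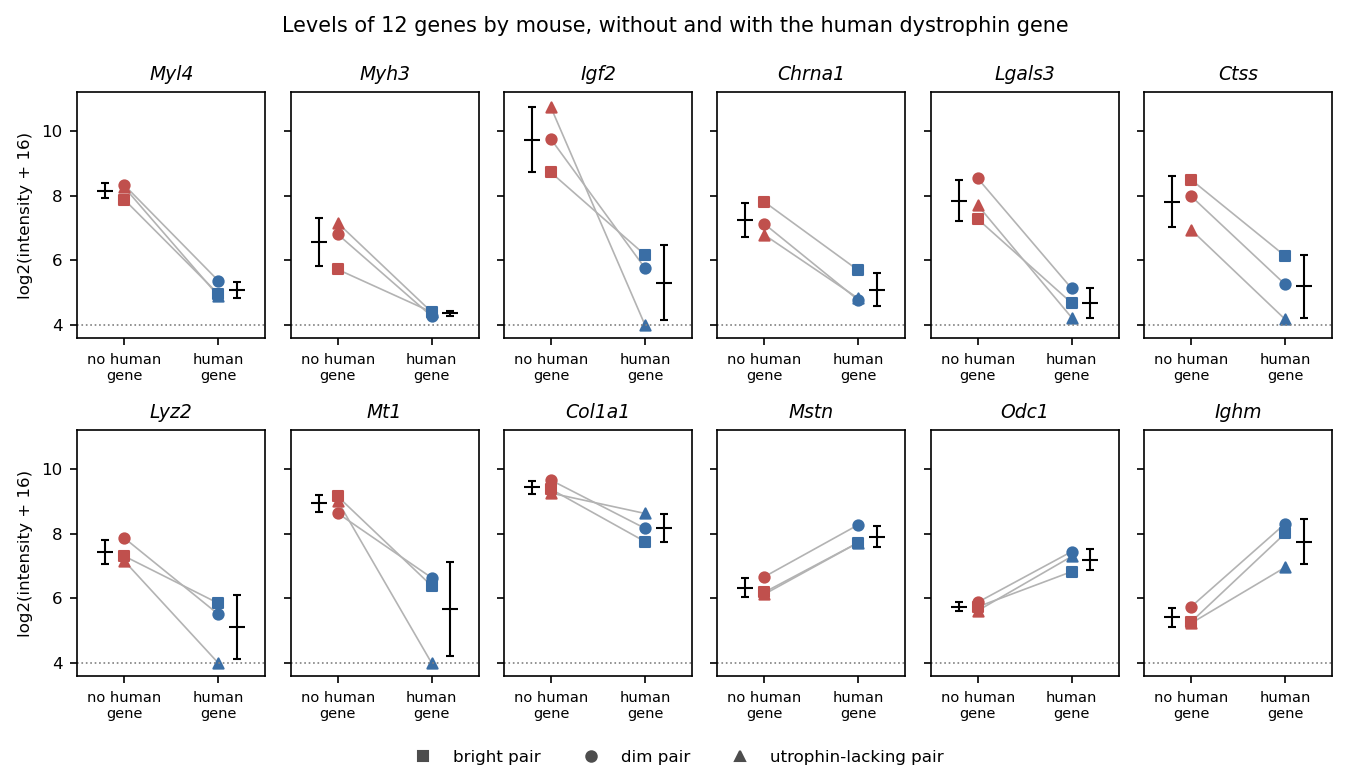
Each panel plots the log2(intensity + 16) level of 1 gene in the 3 mice without (red) and the 3 with (blue) the human gene; grey lines join the bright (square), dim (circle) and utrophin-lacking (triangle) pairs, black bars are mean ± SD, and the dotted line is the floor at 4. Myl4 is probe set 160487_at and Ighm is 93584_at, in each case the probe set of that gene with the largest difference. In all 12 genes carriers and non-carriers lay apart, 9 with carriers below and 3 with carriers above. Most of the 12 were named by a rule that required a lack of overlap, so their separation is a description.

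Igf2 had the largest difference of any gene named here. This fetal growth factor, an imprinted gene expressed again by regenerating fibres, read 6.17, 5.76 and 4.0 in carriers and 9.75, 8.72 and 10.73 in non-carriers (probe set 98623_g_at). The groups lay more than 2 log2 units apart, and the utrophin-lacking pair was the most distant. The difference was -4.42 ± 0.69 (limma adjusted p = 0.165), from -5.05 to -3.27 as each mouse was left out. The other Igf2 probe set, 98622_at, was at or near the floor on all 6 arrays. Outside the test, on 98623_g_at, wild-type 1 read 8.30 and hDMD 1 6.88, both above all 3 carriers, and wild-type 2 read 5.69. High Igf2 was therefore not confined to the mice without dystrophin. Peg3, an imprinted zinc finger gene of muscle progenitors, read 5.38, 4.0 and 4.21 against 5.81, 6.81 and 6.83, a difference of -1.95 ± 0.47. A second probe set of Peg3, 101451_at, differed by -1.62 ± 0.34 and 161316_f_at by -0.27 with overlap. Cdkn1c, an imprinted inhibitor of cell division, differed by -0.90 ± 0.28 with no overlap. Of 19 measured genes of the insulin-like growth factor and imprinted growth list 16 were lower in value, with a median of -0.39. Of the 19, 6 were lower without overlap, beside 5.44% of all genes. Of those 19 genes 5 also stand in another list, such as the regenerating one.

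Mstn, myostatin, a secreted inhibitor of muscle growth, was among the few genes of this kind that stood higher in carriers. It read 7.73, 8.28 and 7.73 in carriers and 6.67, 6.19 and 6.13 in non-carriers, with no overlap. The difference was 1.58 ± 0.30 (limma adjusted p = 0.264) and the 3 pairs gave 1.53, 1.60 and 1.61. The cell cycle inhibitor Cdkn1a went the other way: its probe set 94881_at differed by -2.39 ± 0.35 without overlap, and 98067_at by -1.84 ± 0.72 with hDMD mdx 2 and hDMD mdx utrn-/- 1 above mdx 2. Of 18 measured cell cycle genes 12 were lower in value, beside 47.55% of all genes, with a median of -0.34. Pcna, the DNA polymerase clamp, differed by -1.15 ± 0.43 with overlap.

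Macrophage genes had the lowest median of all 26 lists. Of 23 measured genes 21 were lower in carriers in value and 15 did not overlap, with a median of -1.04. Over all genes 2694 (47.55%) were lower in value and 308 (5.44%) did not overlap on that side. The median was -0.81 in the bright pair, -1.58 in the dim pair and -1.0 in the utrophin-lacking pair. Lgals3 and Ctss passed with the block and none passed without it. In bulk muscle, fewer cells of a type and less RNA per cell cannot be told apart.

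Lgals3 encodes galectin-3, a sugar-binding lectin that activated macrophages secrete. It read 4.68, 5.13 and 4.23 in carriers and 8.54, 7.28 and 7.71 in non-carriers. No carrier came within 2 log2 units of a non-carrier. The difference was -3.16 ± 0.39 (limma adjusted p = 0.136, and 0.0230 with the block), an 8.97-fold ratio of intensity + 16. Ctss, cathepsin S, a protease that trims the invariant chain for antigen presentation, read 6.14, 5.26 and 4.18 against 7.99, 8.50 and 6.95. In each group the mouse without utrophin was the lowest. Its difference was -2.62 ± 0.33 (limma adjusted p = 0.136, and 0.0230 with the block).

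Lyz2, the lysozyme of macrophages and neutrophils, read 5.85, 5.51 and 4.0 in carriers and 7.87, 7.31 and 7.16 in non-carriers, a difference of -2.33 ± 0.36 (limma adjusted p = 0.165). Tyrobp, an adaptor of myeloid receptors, read 4.76, 4.0 and 4.03 against 6.51, 6.21 and 5.93, a difference of -1.95 ± 0.31. In neither gene did the groups overlap; hDMD mdx utrn-/- 1 was at the floor for Lyz2, and hDMD mdx 2 for Tyrobp. The myeloid transcript Lst1 differed by -1.69 ± 0.29 and the endosomal glycoprotein Cd68 by -1.61 ± 0.37. Mpeg1, a pore-forming protein of macrophages, differed by -1.47 ± 0.30 and Csf1r, the receptor for their growth factor, by -1.06 ± 0.34, again without overlap. Mmp12, the macrophage elastase, read 4.0, 4.30 and 4.0 against 6.54, 6.34 and 4.70 on probe set 95339_r_at; its other probe set, 95338_s_at, differed by -0.76 with overlap. The genes did not all separate: the Fc receptor Fcgr3 differed by 0.04.

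Summed over the 8 macrophage markers, carriers held 149.2 to 166.8 intensity units and non-carriers 425.8 to 797.2. Of the 8, 5 were lower in carriers without overlap, beside 5.44% of all genes. Adgre1 and Itgam lay between 4.0 and 5.10 in all 6 mice. Of the other cell types, the 5 fibroblast markers summed to 1493 to 1854 in carriers and 2201 to 2532 in non-carriers. Of these 5, 2 were lower without overlap, beside the same 5.44%. The 6 muscle fibre markers summed to 11350 to 13920 and 10900 to 13260, and the 6 endothelial markers to 342.5 to 495 and 276.5 to 594.4. As a sum, the 7 T and B lymphocyte markers with a probe set were higher in carriers: 396.4 to 464.8 against 152.7 to 208.4. Of the 7, only Ighm, the brightest, was higher without overlap, beside 5.75% of all genes, and 2 were lower in value. The part of macrophage, fibroblast and lymphocyte content in the other differences was not tested.

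Macrophage genes were not low in every mouse with dystrophin. In the arrays outside the test, Lgals3 read 4.57 and 7.53 in the 2 wild-type mice and 4.53 in the hDMD mouse. Wild-type 2 was within the range of the non-carriers for Lgals3 and Lyz2 (7.24) and above it for Csf1r (7.81), whereas its Myl4 (160487_at, 4.70) and Myh3 (4.0) lay below all 3 carriers.

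Complement genes, many of them made by macrophages, were mostly lower in value too. C1qb, a chain of the complement protein C1q, read 5.55, 5.75 and 5.59 in carriers and 7.89, 6.94 and 6.71 in non-carriers, a difference of -1.55 ± 0.35 on probe set 96020_at, although the second probe set 162276_i_at differed by 0.16 with overlap. The other C1q chains did not overlap either: C1qc differed by -1.35 ± 0.28 and C1qa by -0.87 ± 0.33. C3ar1, the receptor for the complement fragment C3a, differed by -1.74 ± 0.41. Of the 10 measured complement genes 8 were lower in value and 5 did not overlap (5.44% of all genes), with a median of -0.41.

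All 15 measured genes of antigen presentation, of 17 with a probe set, were lower in value in carriers, with a median of -0.74. Of the 15, 9 were lower without overlap, beside 5.44% of all genes. B2m, the light chain of class I molecules, read 8.09, 8.23 and 7.56 against 9.19, 9.15 and 9.20, a difference of -1.22 ± 0.28. The non-carriers were within 0.1 of each other. H2-Aa, a class II chain, read 6.98, 4.0 and 5.56 against 7.61, 7.83 and 6.38; hDMD mdx 1 lay above mdx utrn-/- 1. Of 21 measured lysosomal genes 20 were lower in value, 9 without overlap (5.44% of all genes), with a median of -0.66. Lgmn, the protease legumain, differed by -1.58 ± 0.31 and Ctsl, cathepsin L, by -1.25 ± 0.32.

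Chemokines had no common direction: of 9 measured chemokine and receptor genes 4 were lower and 5 higher in value, with a median of 0.03. Ccl9 and Ccl6, which attract monocytes, were lower in value, at -1.37 ± 0.34 and -1.88 ± 0.61, both without overlap.

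Lymphocyte genes that cleared the filter lay on the other side. Of the T and B lymphocyte list 19 genes had a probe set and 10 cleared the filter. All 10 were higher in value in carriers, with a median of 0.26, but only Ighm and Ms4a1 did not overlap. Over all genes 326 (5.75%) were higher in carriers without overlap. Some genes that the filter removed, such as Cd2 and Cd8b1, were lower in value in carriers and near the floor. Ighm, the heavy chain of immunoglobulin M, read 8.01, 8.31 and 6.96 in carriers and 5.74, 5.27 and 5.23 in non-carriers on probe set 93584_at. The difference was 2.35 ± 0.32 (limma adjusted p = 0.145). On 93583_s_at it was 1.26 ± 0.27, also without overlap, while 100362_f_at and 101346_at overlapped, at -1.03 and 0.27; probe sets of immunoglobulin genes can share sequence. Ms4a1, which encodes the B cell surface protein CD20, differed by 0.69 ± 0.29 on 104173_at and by -0.63 on 99446_at with overlap. The T cell gene Cd3e was at the floor in all 6 mice. The mice outside the test did not sort by the human gene for Ighm 93584_at: wild-type read 5.93 and 7.90 and hDMD 8.19.

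Matrix genes were mostly lower in value in carriers. Of 38 measured matrix genes 34 were lower and 20 did not overlap, with a median of -0.82. Over all genes 47.55% were lower in value and 5.44% did not overlap on that side. The median was -0.94 in the bright pair and -0.99 in the dim pair, and -0.36 in the utrophin-lacking pair. Timp1, an inhibitor of matrix proteases, had its gap in the mice with utrophin. It read 5.30 and 6.10 in the hDMD mdx mice and 8.66 and 7.53 in the mdx mice, but 6.99 and 7.43 in the utrophin-lacking mice with and without the human gene. Its difference of -1.75 ± 0.51 ranged from -2.40 to -1.24 as each mouse was left out. A test of whether the human gene difference itself depended on utrophin is given further on; Timp1 did not pass it with or without the block.

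The fibroblast and macrophage protein S100a4 read 5.35, 6.01 and 5.57 in carriers and 7.99, 7.03 and 8.03 in non-carriers, a difference of -2.04 ± 0.37 that was as large in the utrophin-lacking pair (-2.46) as in the bright (-1.68) and dim (-1.98) ones. Col1a1, the main fibrillar collagen chain, read 7.76, 8.17 and 8.63 against 9.66, 9.38 and 9.26, a difference of -1.25 ± 0.32. The groups did not overlap there, but on its second probe set, 103709_at, they did, at -0.48. Col3a1, the collagen chain of young scar, differed by -0.93 ± 0.49 with hDMD mdx utrn-/- 1 above mdx utrn-/- 1. Postn, a matrix protein of wound fibroblasts, differed by -1.52 ± 0.36, fibronectin (Fn1) by -1.38 ± 0.30, and the collagen chains Col5a2 and Col6a3 by -1.32 ± 0.29 and -1.22 ± 0.29. Elastin (Eln) differed by -1.17 ± 0.26. These 5 did not overlap. The wild-type mice outside the test were not low for Col1a1 and Fn1: Col1a1 read 9.69 and 9.81 there, above all 3 non-carriers, and Fn1 8.28 and 8.98, while hDMD 1 read 8.02 and 7.47. Tmsb10, thymosin beta 10, which binds actin monomers in motile and immature cells, read 7.13, 6.93 and 7.30 against 9.44, 9.02 and 9.04, a difference of -2.04 ± 0.28 (limma adjusted p = 0.145). Pld3, a lysosomal nuclease, was at the floor in all 3 carriers and read 5.45, 6.08 and 5.68 in non-carriers.

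The metallothioneins Mt1 and Mt2, small proteins that bind zinc and are induced by metals and stress hormones, were lower in value in carriers. Mt2 read 7.41, 8.40 and 7.90 in carriers and 10.10, 10.11 and 10.03 in non-carriers. The 3 non-carriers were nearly equal and well above the carriers. Its difference was -2.17 ± 0.33 (limma adjusted p = 0.165). Mt1 read 6.39, 6.64 and 4.0 against 8.64, 9.16 and 9.02, and differed by -3.26 ± 0.53 (limma adjusted p = 0.174). Here hDMD mdx utrn-/- 1 was at the floor, and the pairs were -2.76, -2.0 and -5.02.

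Their promoters are shown because the genes lie side by side on chromosome 8 and stood low together. The 250 bases before each RefSeq start are printed as above, with the core of the metal response element, TGCACNC or TGCGCNC on either strand, in capitals. The Mt1 window lies at chr8:94178839-94179088, + strand and that of Mt2 at chr8:94172368-94172617, + strand.

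Mt1: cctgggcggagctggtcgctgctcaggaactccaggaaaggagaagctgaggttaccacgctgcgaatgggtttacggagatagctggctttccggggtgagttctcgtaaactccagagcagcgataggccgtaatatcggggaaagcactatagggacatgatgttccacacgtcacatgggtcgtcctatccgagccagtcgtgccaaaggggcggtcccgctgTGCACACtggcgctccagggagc

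Mt2: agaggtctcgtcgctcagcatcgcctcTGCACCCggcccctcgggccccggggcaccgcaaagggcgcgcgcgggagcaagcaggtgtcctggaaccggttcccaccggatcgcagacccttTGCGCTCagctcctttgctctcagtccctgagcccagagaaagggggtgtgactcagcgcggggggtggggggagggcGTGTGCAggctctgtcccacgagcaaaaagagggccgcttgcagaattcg

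Mt2 held 3 matches, a count that 1.26% of the 32851 windows reached, and Mt1 held 1, which 21.4% reached. The matches are of letters in these windows only. Bases after the RefSeq start were not searched, so these are not counts for whole promoters.

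The other stress genes were mixed. Of 29 measured immediate early and stress genes 21 were lower in value and 6 did not overlap on that side, with a median of -0.35. Over all genes these shares were 47.55% and 5.44%. The median was -0.10 and 0.03 in the bright and dim pairs and -0.89 in the utrophin-lacking pair. The transcription factors Junb and Egr1 differed by -1.16 ± 0.41 and -1.06 ± 0.40 without overlap. The enzymes of polyamine turnover went opposite ways. Odc1, ornithine decarboxylase, which starts polyamine synthesis, read 6.83, 7.45 and 7.30 in carriers and 5.88, 5.74 and 5.62 in non-carriers, a difference of 1.44 ± 0.29. Sat1, the acetyltransferase that starts their breakdown, read 6.48, 4.0 and 4.77 against 6.94, 7.33 and 6.95, a difference of -1.99 ± 0.59, from -2.72 to -1.30 as each mouse was left out. Both separated the groups.

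Genes of sugar metabolism were mostly higher in value in carriers. Of 21 measured genes of glycolysis and glycogen 17 were higher in value, beside 2916 of all 5666 genes, with a median of 0.38. Of the 21, 7 were higher without overlap, beside 326 of all genes (5.75%). At an unadjusted limma p of 0.05, 3 were higher, beside 117 of all genes (2.06%). Phka1, the muscle regulatory subunit of phosphorylase kinase, which starts glycogen breakdown, read 7.81, 7.84 and 7.68 in carriers and 6.85, 6.89 and 6.19 in non-carriers. The carriers were within 0.2 of each other and all above. The difference was 1.13 ± 0.27. Fbp2, the muscle fructose bisphosphatase, differed by 1.02 ± 0.33, and Slc2a4, the insulin-responsive glucose transporter, by 0.75 ± 0.27, both without overlap.

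Of 21 measured genes of fatty acid oxidation 18 were higher in value, but only 2 did not overlap (5.75% of all genes), and the median was 0.13. Ucp3, a mitochondrial carrier of muscle, read 7.49, 7.18 and 7.04 against 6.48, 6.45 and 5.30, a difference of 1.16 ± 0.30. Pdk4, the kinase that turns fibres from glucose to fat, differed by 1.18 ± 0.49 with mdx 2 (8.66) above both hDMD mdx 2 and hDMD mdx utrn-/- 1. Of 25 measured genes of oxidative phosphorylation 15 were higher and 10 lower, with a median of 0.12; Ndufs4, a subunit of complex I, differed by 1.06 ± 0.34 without overlap and Cox6a1, of complex IV, by -0.81 ± 0.40 with overlap. Myoglobin (Mb), the oxygen store of the fibre, read 10.06, 9.91 and 10.00 against 9.28, 9.09 and 9.40, a difference of 0.73 ± 0.26.

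The transcription-related genes Rxrg, a retinoid X receptor of muscle, and Vps72, a chromatin remodelling subunit, were higher in value, at 1.68 ± 0.38 and 1.29 ± 0.28, without overlap. Cmbl, a hydrolase, read 8.26, 8.39 and 8.81 against 7.32, 7.16 and 7.35, a difference of 1.21 ± 0.27. The ubiquitin-conjugating enzyme Ube2b and Fez2, a homologue of an axon-growth protein, both differed by 0.97, with SE 0.27 and 0.26. Frat2, of Wnt signalling, and Rdh13, a retinol dehydrogenase, differed by 1.10 ± 0.28 and 1.32 ± 0.36, although the second Frat2 probe set, 103700_r_at, overlapped at 0.56. These 7 genes were chosen for their lack of overlap and small p, so their separation is a description.

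Contractile genes of adult fibres did not lean either way. Of 13 fast fibre genes 7 were higher and 5 lower in value, with a median of 0.04; Actn3, the fast alpha-actinin, differed by 0.31 ± 0.26 and Ryr1, the calcium release channel, by 0.36 ± 0.32. Of 11 slow fibre genes 6 were higher and 5 lower, with a median of 0.09; Actn2, the alpha-actinin of slow fibres and heart, differed by -0.89 ± 0.33 with overlap. In this list 1 mouse stood apart: mdx 1 read 5.34 for Myh7, the slow myosin heavy chain, where the other 5 mice read 7.84 to 9.28, and 5.60 for Myl2, the slow light chain, where they read 8.27 to 9.28. Without mdx 1 the list's median was -0.61, and the differences of Myh7 and Myl2 went from 0.56 and 0.99 to -0.73 and -0.14.

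The partners of dystrophin differed little. Of 15 measured genes of the dystrophin complex and its linked proteins 12 were lower in value, with a median of -0.15. By the probe set counted for each gene, only the muscle caveolin Cav3 was lower without overlap, at -0.46 ± 0.31. Only the calcium protease Capn3 was higher without overlap, at 0.67 ± 0.27. Over all genes 5.44% were lower and 5.75% higher without overlap, so 1 of 15 each way was near those shares. Itga7, the muscle laminin receptor, differed by -1.58 ± 0.62 on 161497_f_at with overlap and by -0.83 ± 0.29 on 93061_at without. Lmna, the nuclear lamin, differed by -0.86 ± 0.37 with overlap.

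**Figure D3:**
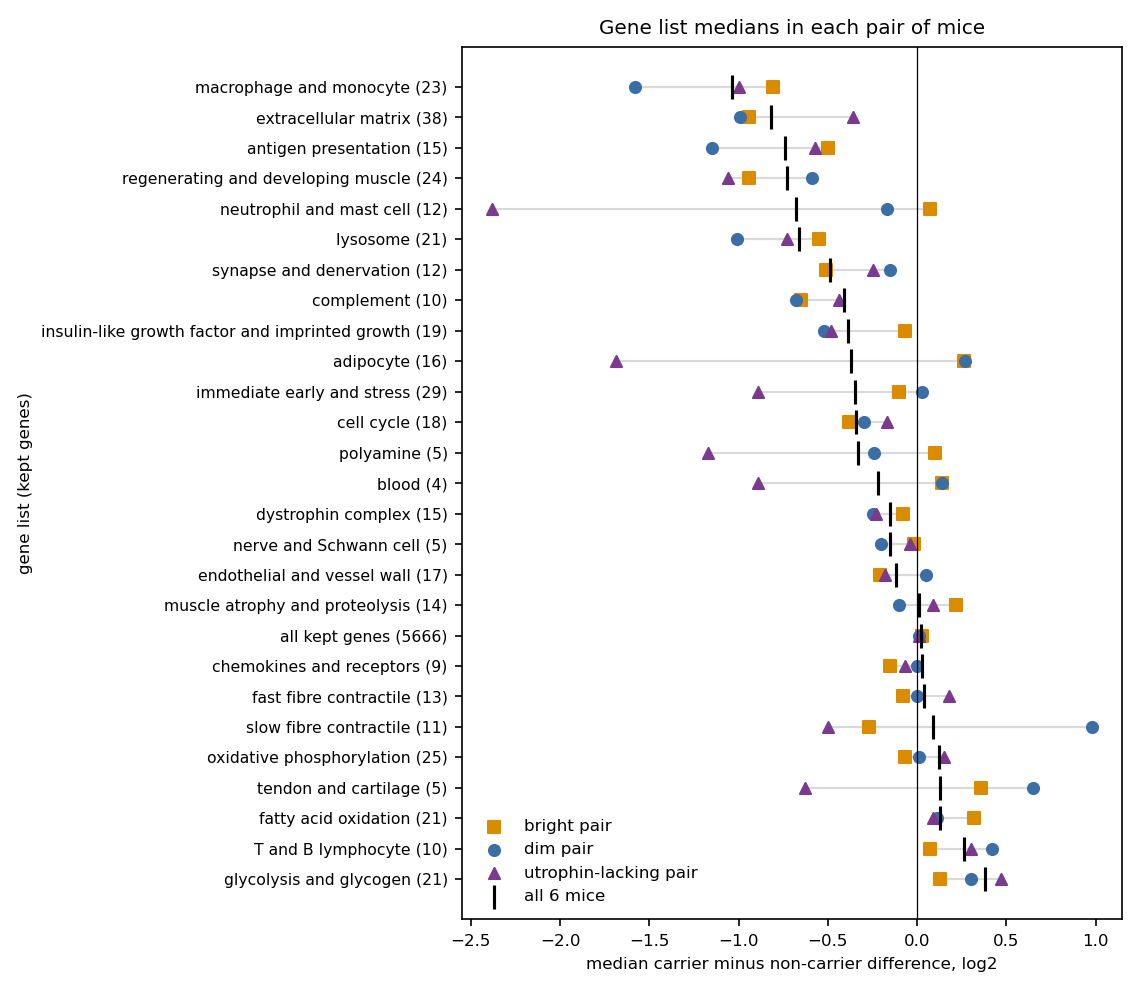
The x axis is the median carrier minus non-carrier difference (log2) of each gene list, with its number of kept genes in parentheses; symbols give the bright, dim and utrophin-lacking pairs and the black tick all 6 mice. The macrophage, matrix, antigen, regenerating, lysosome, synapse and complement lists are among those left of 0 in all 3 pairs, whereas the neutrophil list (-2.38) and adipocyte list (-1.69) lie far left in the utrophin-lacking pair alone.

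Whether the human gene difference depended on utrophin was tested with an interaction term, in which the utrophin-lacking side is 1 mouse against 1. Of 7453 probe sets 0 (0%) passed limma's test, with a smallest adjusted p of 0.508, and 309 (4.15%) reached an unadjusted p of 0.05, against 373 by chance. With brightness as a block 4 passed: S100a8, S100a9 and Retn, with a larger negative difference without utrophin, and Aldoart2 in the opposite direction, named after its values were seen. Within the mice with utrophin, 2 against 2, 0 passed without the block (229 at an unadjusted p under 0.05) and 9 with it. Those 9 were both probe sets of Myl4, Lgals3, Ctss, Chrna1, Timp1, Mmp12 and 97519_at, all lower in carriers, and Ighm 93584_at, higher. With the block, both the interaction and the difference within mdx take a probe set's own spread only from the bright and dim pairs disagreeing. The utrophin-lacking arrays are fitted exactly there, so these passes rest on little. Single pairs differed in spread: 588 genes were lower and 449 higher by more than 1 in the utrophin-lacking pair, 294 and 211 in the dim pair, and 117 and 72 in the bright pair. Over all 5666 genes 935 were lower in all 3 pairs (16.5%) and 1101 higher (19.4%).

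Of the 4 that passed with the block, 3 are granulocyte or adipocyte genes; Aldoart2, an aldolase-like gene, read 4.0 in mdx utrn-/- 1 and 8.42 to 9.94 in the other 5 mice. S100a8 and S100a9, the subunits of calprotectin, an abundant cytosolic protein of neutrophils, read 9.08 and 9.52 in mdx utrn-/- 1. In the other 5 mice S100a8 read 4.0 to 4.27 and S100a9 4.0 to 4.46. Their differences between carriers and non-carriers, -1.72 ± 0.91 and -1.85 ± 0.87, therefore rest on that mouse, and without it they were -0.04 and -0.25. The neutrophil granule genes Ngp and Camp also peaked there, at 8.80 and 8.88, and Lcn2, lipocalin 2, at 7.07, although Lcn2 also separated the groups, with all 3 carriers lower. Of 12 measured neutrophil and mast cell genes 9 were lower in value in carriers, with a median of -0.68 that was -0.02 without mdx utrn-/- 1. The 6 neutrophil markers summed to 83.37 to 2406 in non-carriers and 61.1 to 165.4 in carriers.

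The adipocyte list behaved likewise. Retn, resistin, read 9.00 and 4.33 in the utrophin-lacking mice without and with the human gene, and 6.30 to 7.01 in the mice with utrophin. Acly, which supplies acetyl-CoA for fat synthesis, read 9.30 and 5.82 in the utrophin-lacking pair. Of 16 measured adipocyte genes 12 were lower in value and none separated the groups, and the median of -0.37 became 0.44 without either utrophin-lacking mouse. Adipocyte markers summed to 197.8 to 796.8 in carriers and 325.9 to 1209 in non-carriers. The age of these 2 mice differed too, at 5 and 9 weeks, and with 1 mouse a side, genotype, age and mouse cannot be told apart.

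**Figure D4:**
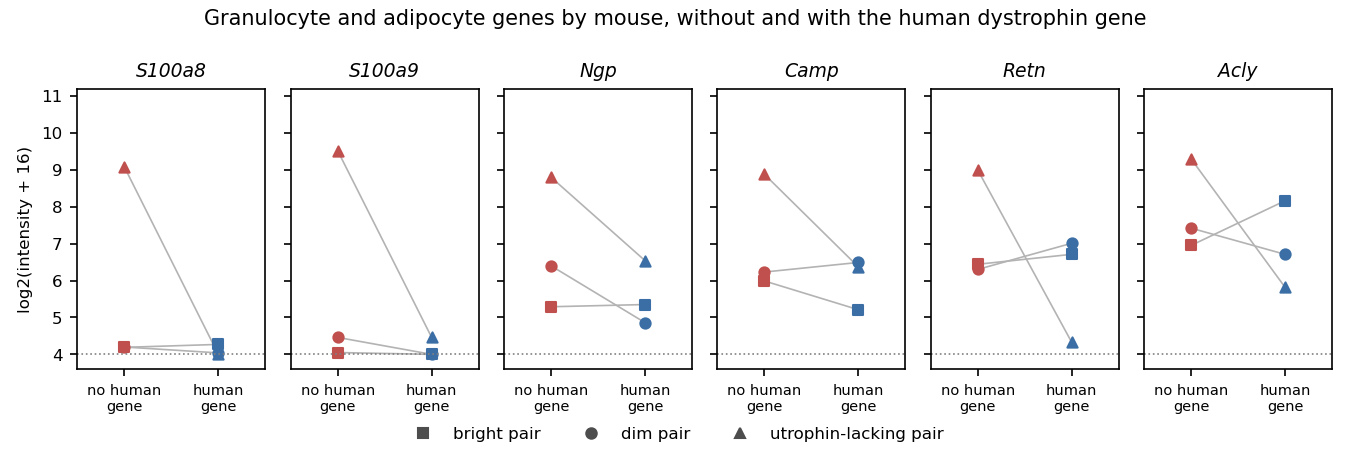
Each panel plots the log2(intensity + 16) level of 1 gene in the mice without (red) and with (blue) the human gene, with lines joining the bright (square), dim (circle) and utrophin-lacking (triangle) pairs and the floor at 4 dotted. The red triangle, mdx utrn-/- 1, is the highest of the 6 mice in every panel, from 8.80 for Ngp to 9.52 for S100a9.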

How the data were processed

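RNA from individual mice was hybridised to Affymetrix U74Av2 arrays. Values are the intensity per probe set as deposited by the authors; their expression measure, software and scale: not given in the sources used here. Of 12488 probe sets, 66 controls were set aside; of the other 12422, 10833 had 1 gene symbol in GEO's platform annotation, 396 several and 1193 none listed. With R 4.3.3 and limma 3.58.1, the 9 arrays were quantile normalised, values under 0 were then set to 0, and log2(value + 16) was taken. Folds of dim genes are understated on this scale. Probe sets whose mean over the 9 arrays passed the 40th percentile (7453, with 5666 named genes) were kept. limma (lmFit, eBayes) tested the human gene with utrophin genotype as a term on 6 arrays, two-sided, with Benjamini-Hochberg adjustment over all kept probe sets. The block is array brightness (spike-in signal). The code was tested on simulated data. The number of arrays limits the precision. Measured genes of a list are those with a kept probe set, and each counts once, by its brightest kept probe set over the 9 arrays.

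Named genes were any past the threshold, the 12 per direction with the smallest p among those without overlap and with 1 sign in all pairs, the top 2 of each of 26 lists, and a fixed set (Spp1 in it has no probe set naming it alone); others, such as Postn, C1qc and Slc2a4, were chosen after their values were seen. The comparison, the lists, the named genes and the block were chosen with earlier results of these data known. Promoters are from RefSeq (GRCm38.p6), matched by symbol for all 5 genes looked up. Alternatives varied the normalisation, filter, added constant, covariates and mice.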

Additional observations from a re-analysis of the deposited data

Results flagged for a closer look

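In 3 gene lists the bright and dim pairs had medians of one sign and the utrophin-lacking pair the opposite sign; the difference between backgrounds was not tested for these lists, and the utrophin-lacking pair is 1 mouse against 1. The adipocyte list (16 genes) had a median of -1.69 in the utrophin-lacking pair, against 0.26 and 0.27 in the bright and dim pairs. The blood list (4 genes) had -0.89, against 0.14 and 0.14. The tendon and cartilage list (5 genes) had -0.63, against 0.36 and 0.65. No group holds enough mice for a test of single outlying samples.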

How the results depend on the processing

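Of the 3 counts of passing probe sets, each 0 as reported, the comparison over 6 arrays became 1 with an intensity trend in limma's prior, 4 with brightness as a block and 2 without the utrophin term; the interaction became 4 and the difference within mdx 9 with the block. All 3 counts stayed at 0 as each mouse with utrophin was left out, from 0 to 0 (the first also without either utrophin-lacking mouse), and under no normalisation, other filters and other added constants; the first also stayed at 0 with age as a covariate, on the 4 dim arrays alone and with all 9 arrays in the fit. Leaving out a utrophin-lacking mouse leaves its partner without weight, so both such fits equal the 4 arrays with utrophin. Single genes changed sign as follows. As deposited, without normalisation, Sox10 was 0.08 and Dmd 0.10. In hDMD mdx against mdx alone, and so without either utrophin-lacking mouse, Car2 was 0.12 (from -1.43 to 0.12 as each mouse was left out), Retn 0.49 (-1.81 to 0.49), Acly 0.25 (-1.76 to 0.25) and Dmd 0.01 (-0.24 to 0.01). Without mdx 1, Myl2 was -0.14 (-0.14 to 1.89), Myh7 -0.73 (-0.73 to 1.52) and Mbp -0.11. Without hDMD mdx 1, Actc1 was 0.06 (-0.80 to 0.06), Chrnd 0.08 (-0.71 to 0.08) and Mbp -0.38 (-0.38 to 0.65). Chrnd was 0.04 with age as a covariate. Mbp was -0.15 with age as a covariate and -0.19 on the 4 dim arrays. Utrn was -0.07 on the dim arrays and -0.56 without hDMD mdx 2 and -0.55 without mdx 2 (-0.56 to 0.48). The cause was not tested. Without normalisation the median of all probe sets was 0.25, beside 0.02. The labels give no replicate numbers, so no replicate block could be fitted; the fit with the utrophin term and brightness as a block pairs the arrays as the 3 pairs do.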

Other observations

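Several probe sets without a listed gene name separated the groups as widely as the named genes. The probe set 101489_at read 10.10, 10.32 and 10.07 in hDMD mdx 1, hDMD mdx 2 and hDMD mdx utrn-/- 1, and 8.40, 8.45 and 6.97 in mdx 1, mdx 2 and mdx utrn-/- 1, a difference of 2.22 ± 0.34 (SE, n = 3 and 3; limma adjusted p = 0.165). The probe set 100323_at read 9.18, 10.22 and 9.82 against 7.91, 7.85 and 6.42, a difference of 2.35 ± 0.43 (limma adjusted p = 0.258). In both, every carrier lay above every non-carrier. The probe set 97519_at, which passed with brightness as a block, read 4.53, 4.33 and 4.04 against 6.92, 7.56 and 6.84, a difference of -2.81 ± 0.29, and its 3 pairs gave -3.04, -2.59 and -2.80.

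Of the blood, nerve, tendon and vessel lists none held a gene with an unadjusted limma p under 0.05. Klf1, a transcription factor of red cell precursors, read 6.41, 7.31 and 7.52 in carriers and 6.94, 6.31 and 6.83 in non-carriers, a difference of 0.38 ± 0.35 with overlap. Car2, carbonic anhydrase 2, read 7.58 in mdx utrn-/- 1 and 4.69 to 6.19 in the other 5 mice. Of the endothelial and vessel wall list 11 of 17 genes were lower in value, with a median of -0.12; Eng, an endothelial receptor, differed by -0.52 ± 0.37 and Acta2, smooth muscle actin, by -0.93 ± 0.54, with hDMD mdx utrn-/- 1 (5.11) alone below the other 5 mice (7.41 to 7.83). The Schwann cell gene Sox10 differed by -0.55 ± 0.31 and the myelin gene Mbp by 0.23 ± 0.52, and the cartilage genes Chad and Acan by 0.54 ± 0.38 and 0.38 ± 0.27, all with overlap.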
